A study of Mus musculus with 6 samples.

Results

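The BMP and SMAD response genes described here are 10 mouse genes of bone morphogenetic protein (BMP) signalling, taken by gene name from the 54532 genes of the deposited expression table: the ligands Bmp2 and Bmp4, the receptors Bmpr1a, Bmpr1b and Bmpr2, the inhibitory SMAD genes Smad6 and Smad7, and the ID genes Id1, Id2 and Id3. All 10 names were found in the table. Their expression was measured by RNA-seq of ovarian granulosa cells (GCs) from female ICR mice aged 3 weeks, all of which had received 5 IU of PMSG, a gonadotrophin that drives follicle growth. PBS or 120 mg/kg cyclophosphamide (CTX), an alkylating chemotherapy drug, was injected into the abdomen 22 h after PMSG, and GCs were collected 6 h after that injection. Each group had 3 samples, and each sample pooled the GCs of 3 mice, so differences among single mice within a pool cannot be seen. The labels name no transgene or deletion in either group.

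BMP ligands bind a complex of type I and type II receptor kinases at the cell surface, and the type I receptor then phosphorylates SMAD1, SMAD5 and SMAD9, which enter the nucleus with SMAD4. The ID genes are classical direct targets of these SMADs, and their proteins bind E proteins and keep them off DNA. SMAD6 and SMAD7 are also induced by the pathway and inhibit it. In the follicle, GCs, theca cells and the oocyte all make BMP-family ligands, and BMPs are known to restrain premature luteinization of GCs.

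The DNA just upstream of the start of a target gene is 1 place where SMADs can bind. RefSeq promoter entries (build GRCm38.p6) were matched for 7 of the 10 genes, with 9 start sites, and none was available for Bmp2, Id1 and Smad7. The 250 bases upstream of each start were searched on both strands for GGCGCC (a GC-rich SMAD site), CAGAC (the SMAD box), GGAGCC (a variant of the GC-rich site) and TGACGTCA (the cAMP response element). Among 32851 RefSeq promoters of the same length, 9.59% held GGCGCC, 42.2% CAGAC, 26.0% GGAGCC and 1.55% TGACGTCA, so that short letters such as CAGAC occur in many promoters. Smad6 and Id2 are shown as genes that the pathway is known to induce, and Bmpr1b as a receptor gene whose groups overlapped. Bmpr1b has more than 1 RefSeq start. The stretches shown for Id2 and Bmpr1b lie within the spans of their genes, chr12:25093799-25097140 and chr3:141837136-142169425. Of the windows searched, only those of Smad6 and Bmp4 lay outside the annotated gene. Those of Id3, Bmpr1a and Bmpr2 also lay within it. The capitals mark the motif letters, read 5′ to 3′ on the strand of the gene, and only bases outside exons annotated by GENCODE M21 are shown, which leaves 89 bases for Id2.
Smad6 (chr9:64022060-64022309, minus strand): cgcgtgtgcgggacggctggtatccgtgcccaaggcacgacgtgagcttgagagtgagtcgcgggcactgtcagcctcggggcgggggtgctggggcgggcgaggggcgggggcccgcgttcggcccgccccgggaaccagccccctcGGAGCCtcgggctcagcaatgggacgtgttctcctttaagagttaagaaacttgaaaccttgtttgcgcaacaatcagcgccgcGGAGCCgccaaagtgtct
Id2 (chr12:25096254-25096342, minus strand): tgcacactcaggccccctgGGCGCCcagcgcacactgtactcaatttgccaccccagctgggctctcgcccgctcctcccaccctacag
Bmpr1b (chr3:141982265-141982514, minus strand): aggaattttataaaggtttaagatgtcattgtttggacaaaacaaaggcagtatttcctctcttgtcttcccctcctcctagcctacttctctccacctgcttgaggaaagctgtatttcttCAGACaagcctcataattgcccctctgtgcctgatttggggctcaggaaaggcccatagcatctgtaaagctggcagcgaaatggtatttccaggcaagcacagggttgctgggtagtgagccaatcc

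The Smad6 promoter held GGAGCC at 102 and 18 bases upstream of the start, and neither GGCGCC nor CAGAC. Id2 held GGCGCC at 231 bases and GGAGCC at 88 bases upstream of its RefSeq start, the second of these within an annotated exon and so not shown. Id3, whose 250 searched bases all lie in an exon annotated by GENCODE, held CAGAC at 167 and 68 bases and GGAGCC at 187 bases upstream of its RefSeq start. The Bmpr1b stretch shown held CAGAC at 128 bases. Upstream of the other RefSeq starts of Bmpr1b, CAGAC was found at 245 bases and GGAGCC at 141 and 43 bases, the last within an annotated exon. GGCGCC was also found upstream of the RefSeq starts of Bmpr2 and Bmpr1a, and GGAGCC upstream of that of Bmp4. As for Id3, the 250 searched bases of Bmpr2 all lie in an annotated exon. TGACGTCA occurred in none of the 9. No motif letters overlapped in the stretches shown. These are matches of letters, and binding was not measured by RNA-seq.

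Levels are given as FPKM, a read density per kilobase of gene scaled to sequencing depth, so that genes of different length can be compared. Each sample held between 16005869 and 18455011 reads on genes, and a 1-kb gene with 3 reads would have 0.164 to 0.185 FPKM. GC markers were abundant in every sample, with Inha between 8556 and 10400 FPKM. In a principal component analysis, the first component held 46.8% of the variance and separated CTX replicate 2, at 74.7, from the other CTX samples, at -9.81 and 13.2, and from the PBS samples, at -26.6 to -25.3. Where the log2 fold change of a single gene is given and CTX replicate 2 moved it by over 1.5 times, it is given with and without that sample.

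**Figure D1:**
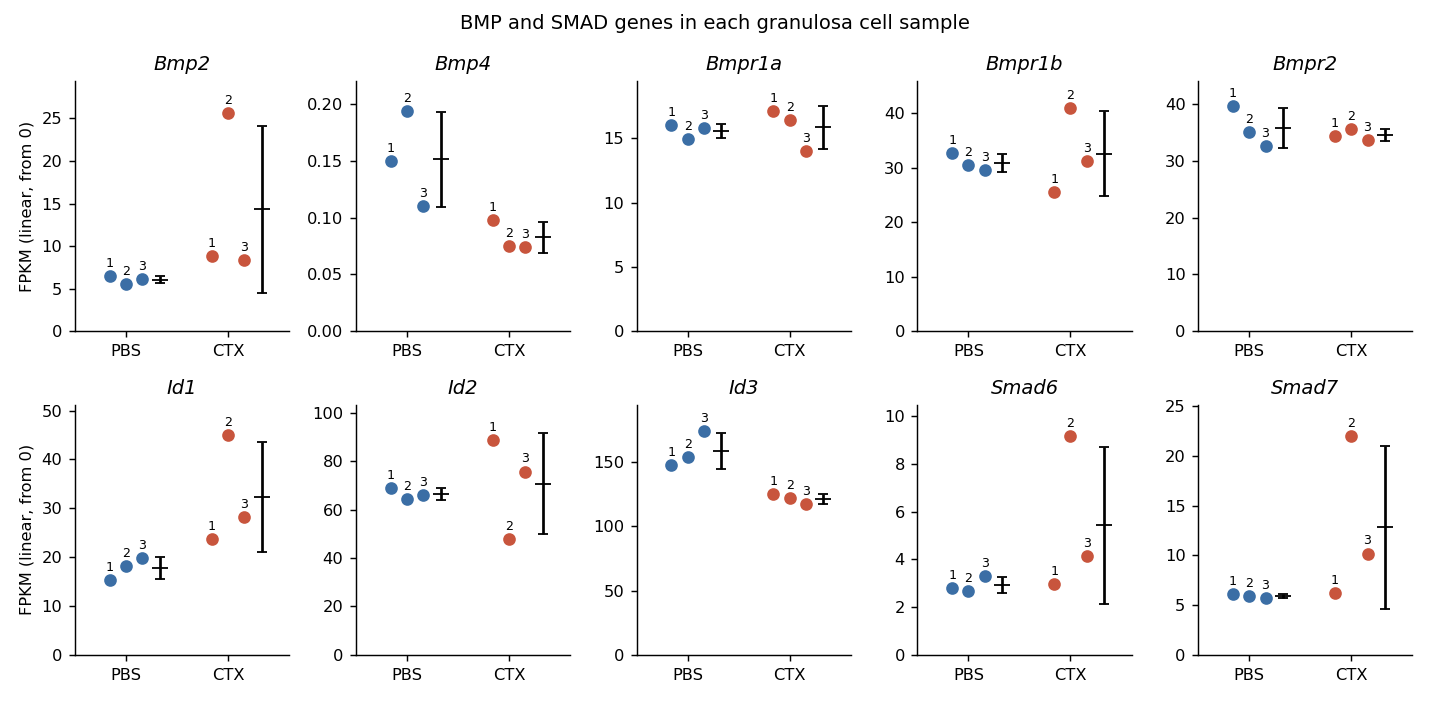
FPKM of the 10 genes in each sample (points, numbered by replicate), with PBS in blue and CTX in orange, linear axes from 0, and the mean ± SD of the 3 samples beside each group. CTX replicate 2 is the highest of the 6 samples for Bmp2, Bmpr1b, Id1, Smad6 and Smad7 and the lowest for Id2, whereas the 3 CTX samples of Id3 lie together below all PBS samples.

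Of the 10 genes, 9 passed the expression filter of a mean FPKM of at least 0.5, and Bmp4 did not. None of the 9 was called changed by limma (Benjamini-Hochberg adjusted p below 0.05 and more than 2-fold), where 0.802% of the 14463 genes tested were called higher and 0.159% lower after CTX treatment. None passed on the adjusted p alone, which 1.40% of all genes did as higher and 0.360% as lower. At an unadjusted p below 0.05 (limma) there were 3, Bmp2, Id1 and Id3, beside 2840 of the 14463 genes tested. The voom method of limma on rebuilt reads also called 0. In 3 of the 9, Bmp2, Id1 and Smad7, every CTX sample was above every PBS sample, which was so for 15.0% of all genes, and in 1, Id3, every CTX sample was below, which was so for 14.1%. On the scale of voom, 2 (Bmp2 and Id1, without Smad7) were apart as higher and 1 as lower, beside 1789 and 2632 of the 14463 genes tested. The median log2 fold change was 0.05 over the 9 genes and -0.01 over all genes tested, and 7 of the 9 were above 0. Without CTX replicate 2 the median of the 9 was 0.25, and Bmp2 passed on the adjusted p alone, as did 2.49% of all genes as higher and 1.16% as lower. A fit with limma's sample weights (arrayWeights), whose estimation stopped before it converged, passed Bmp2, Id1, Smad6 and Smad7 as higher and Id3 as lower on the adjusted p, beside 19.4% of all genes higher and 20.4% lower.

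**Figure D2:**
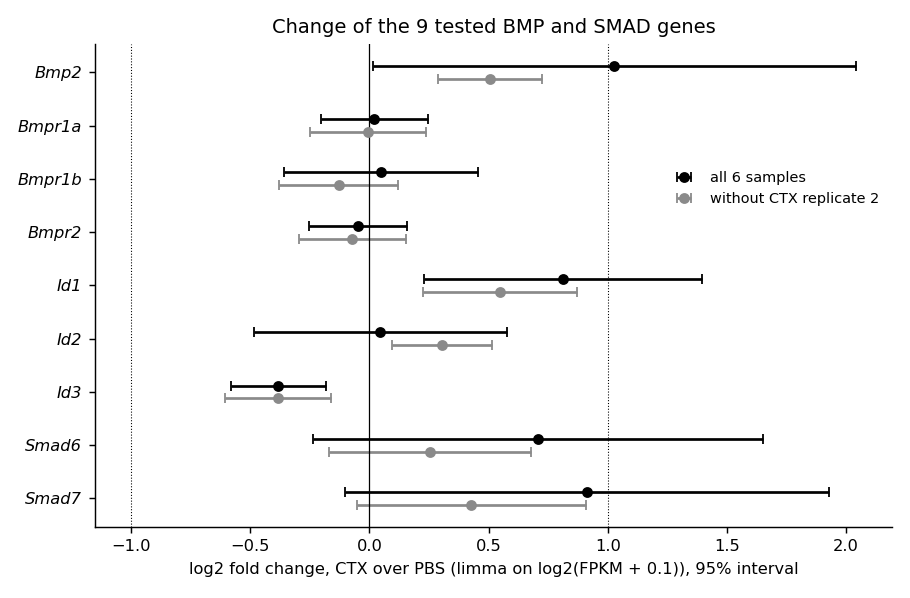
Log2 fold change of CTX over PBS with its 95% interval for the 9 genes tested, from all 6 samples (black) and without CTX replicate 2 (grey), with dotted lines at a 2-fold change. The intervals of Bmp2, Smad6 and Smad7 span a wide range with all samples and are narrower without CTX replicate 2, and those of Id3 lie below 0 in both fits.

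Bmp2 is a ligand that GCs themselves make (ENSMUSG00000027358, chr2:133552159-133562885, plus strand, 3 exons). It measured 6.49, 5.60 and 6.08 FPKM in PBS replicates 1, 2 and 3 and 8.88, 25.7 and 8.40 FPKM in CTX replicates 1, 2 and 3. All CTX samples were above all PBS samples, and CTX replicate 2 stood 2.97-fold above the mean of the other CTX samples. The mean was 6.05 ± 0.444 FPKM in the PBS group and 14.3 ± 9.84 FPKM in the CTX group (mean ± SD, n = 3). On the log2 scale the change was 1.03 with an SE of 0.42 and a 95% interval from 0.01 to 2.04 (limma, adjusted p = 0.25). Without CTX replicate 2 it was 0.51 with an interval from 0.29 to 0.73 (limma, adjusted p = 0.0401). For a single gene, an exact two-sided permutation test of 3 against 3 samples cannot go below p = 0.1, the value it gave wherever the groups did not overlap.

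Bmp4, the ligand best known from theca cells, was close to the detection limit in GCs (ENSMUSG00000021835, chr14:46383520-46390669, minus strand). It rested on 6, 8 and 4 reads with PBS and on 4, 3 and 3 reads in the CTX samples. This was 0.110 to 0.194 FPKM with PBS and 0.0745 to 0.0982 FPKM with CTX, every CTX sample below every PBS sample. PBS replicate 3 and CTX replicate 1 both held 4 reads, and such counts are too low to compare the groups. Of the 10 BMP and GDF ligands listed, 5 passed the filter and 0 were called. Among these 5, CTX samples were all above PBS samples in 1, Bmp2 (15.0% of all genes), and all below in 1 (14.1% of all genes). The latter was Bmp3, a ligand that opposes other BMPs, with 45.0 to 49.5 FPKM with PBS and 34.2 to 39.3 FPKM with CTX. Its log2 fold change was -0.35 (limma, adjusted p = 0.0959), and without CTX replicate 2 it was -0.41 (limma, adjusted p = 0.0386). Bmp3 thus passed on the adjusted p without that sample, and also with arrayWeights, but was under 2-fold and not called. Over the alternatives, its adjusted p (limma) ran from 0.000882 to 0.32. Bmp3 was the most abundant BMP gene of this list in both groups. Bmp15 and Gdf9, which are known as oocyte ligands, measured 3.47 to 8.61 and 11.7 to 24.6 FPKM, and their groups overlapped. The summed FPKM of 7 oocyte genes, which include both, ranged from 33.9 to 73.2 with PBS and from 47.6 to 84.5 in the CTX samples.

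The 3 receptors were abundant and differed little between the groups. Bmpr1a (ENSMUSG00000021796, chr14:34410734-34503341, minus strand, 13 exons) encodes a type I receptor for BMP2 and BMP4. It measured 16.0, 14.9 and 15.8 FPKM with PBS and 17.1, 16.4 and 14.0 FPKM with CTX, so that the groups overlapped. Its log2 fold change came to 0.02, with a 95% interval from -0.20 to 0.25 (limma, adjusted p = 0.913), and without CTX replicate 2 it was -0.007.

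Bmpr1b (ENSMUSG00000052430, chr3:141837136-142169425, minus strand, 11 exons) encodes the type I receptor in which variants are known to raise ovulation rate in sheep. It measured 32.7, 30.5 and 29.5 FPKM with PBS and 25.5, 40.9 and 31.3 FPKM with CTX. CTX replicate 1 was the lowest and CTX replicate 2 the highest of all 6. This gave a log2 fold change of 0.05, with an interval from -0.36 to 0.46 (limma, adjusted p = 0.889), and without CTX replicate 2 it was -0.13.

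Bmpr2 (ENSMUSG00000067336, chr1:59763400-59879014, plus strand, 13 exons) encodes the type II receptor that pairs with both. It measured 39.7, 35.2 and 32.6 FPKM with PBS and 34.3, 35.7 and 33.7 FPKM with CTX, all within the range of the PBS samples. The fitted log2 fold change was -0.05, with an interval from -0.25 to 0.16 (limma, adjusted p = 0.772). The intervals of the 3 receptors thus exclude a change of 2-fold in either direction. In PBS samples the levels ran from Bmpr1a, at 15.6 ± 0.573 FPKM, to Bmpr1b, at 30.9 ± 1.63 FPKM, and Bmpr2, at 35.8 ± 3.56 FPKM, and the last 2 overlapped between samples.

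Of 7 type I receptors of the TGF-β family, 6 were tested and 0 were called, with a median log2 fold change of 0.04 and with overlapping groups in each. Of 5 type II receptors, all 5 were tested and 0 called, with a median of 0.16. Only Tgfbr2, the TGF-β type II receptor, had all CTX samples (2.24 to 2.61 FPKM) above all PBS samples (1.75 to 2.22 FPKM), as had 15.0% of all genes. Of 5 co-receptors, 0 were called. Rgmb, a BMP co-receptor, had all CTX samples (2.26 to 2.44 FPKM) below all PBS samples (2.87 to 3.65 FPKM), as had 14.1% of all genes. Its log2 change was -0.40 (limma, adjusted p = 0.174). The 6 receptor-regulated and common SMAD genes had a median of 0.07 with 0 called. Smad9, a BMP-activated SMAD that is itself a BMP target, was the 1 of them with groups that did not overlap (higher, as in 15.0% of all genes). It measured 0.585, 0.386 and 0.403 FPKM with PBS and 0.915, 1.68 and 0.780 FPKM with CTX, with a log2 fold change of 1.08 (limma, adjusted p = 0.181), and of 0.78 without CTX replicate 2.

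Smad6 (ENSMUSG00000036867, chr9:63953076-64022059, minus strand, 4 exons) encodes the inhibitory SMAD that acts mainly on BMP receptors. It measured 2.82, 2.67 and 3.31 FPKM with PBS and 2.96, 9.18 and 4.14 FPKM with CTX. CTX replicate 2 was high, and CTX replicate 1 lay within the PBS range. Its log2 fold change of 0.71 had an interval from -0.23 to 1.65 (limma, adjusted p = 0.353), and without CTX replicate 2 it was 0.25 with an interval from -0.17 to 0.68.

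Smad7 (ENSMUSG00000025880, chr18:75367529-75395935, plus strand, 4 exons) encodes the inhibitory SMAD that acts on both BMP and TGF-β receptors. It measured 6.08, 5.96 and 5.68 FPKM with PBS and 6.25, 21.99 and 10.2 FPKM with CTX. All CTX samples were above all PBS samples, but CTX replicate 1 by little, at 6.25 against at most 6.08 FPKM (512 against at most 494 reads, not scaled to depth). After scaling to read totals, and on the scale of voom, the groups of Smad7 overlapped. The log2 fold change was 0.91 with an interval from -0.10 to 1.93 (limma, adjusted p = 0.287), and without CTX replicate 2 it was 0.43. The sum of both genes was 8.63 to 8.99 FPKM with PBS and 9.21, 31.2 and 14.3 FPKM in CTX replicates 1, 2 and 3.

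Smad6 and Smad7 belong to a list of 10 intracellular and membrane inhibitors of the pathway, all of which were tested. Of these, 1 was called higher (0.802% of all genes) and 2 passed on the adjusted p as higher (1.40% of all genes). In 7 of the 10 every CTX sample was above every PBS sample (15.0% of all genes). The median log2 fold change was 0.43, and 0.30 without CTX replicate 2. On the scale of voom, the groups were apart in 5 genes as higher and in 1 as lower, beside 1789 and 2632 of the 14463 genes tested. The called gene was Tob1, which encodes an antiproliferative protein that represses SMAD-driven transcription. It measured 40.9, 38.7 and 37.1 FPKM with PBS and 77.4, 89.9 and 80.0 FPKM with CTX, with a log2 fold change of 1.08 and an SE of 0.08 (limma, adjusted p = 0.00267). Skil, the gene of the SMAD co-repressor SnoN and a target of TGF-β signalling, measured 9.02, 8.84 and 6.95 FPKM with PBS and 14.7, 14.4 and 16.7 FPKM with CTX. Its log2 fold change of 0.88 passed on the adjusted p (limma, 0.0252) but was under 2-fold. Without CTX replicate 2, both still passed on the adjusted p (limma, 0.00161 for Tob1 and 0.0238 for Skil).

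Id1 (ENSMUSG00000042745, chr2:152736251-152737410, plus strand) encodes an inhibitor of E-protein binding to DNA and is widely used as a readout of BMP signalling. It measured 15.3, 18.1 and 19.9 FPKM with PBS and 23.7, 45.0 and 28.2 FPKM with CTX. Every CTX sample was above every PBS sample, at 1.34-fold, 2.54-fold and 1.59-fold over the PBS mean in CTX replicates 1, 2 and 3. The mean was 17.8 ± 2.30 FPKM in the PBS group and 32.3 ± 11.2 FPKM in the CTX group (n = 3). The log2 fold change was 0.81 with an SE of 0.24 and an interval from 0.23 to 1.40 (limma, adjusted p = 0.163), and without CTX replicate 2 it was 0.55 with an interval from 0.23 to 0.87 (limma, adjusted p = 0.0934).

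Id2 (ENSMUSG00000020644, chr12:25093799-25097140, minus strand, 4 exons) encodes a related inhibitor. It measured 69.0, 64.3 and 65.9 FPKM with PBS and 88.8, 47.8 and 75.7 FPKM with CTX. CTX replicates 1 and 3 were above all PBS samples and CTX replicate 2 was below all of them, the opposite of its place for Id1. The log2 fold change was 0.05 with an interval from -0.49 to 0.58 (limma, adjusted p = 0.923), and without CTX replicate 2 it was 0.30 with an interval from 0.09 to 0.52 (limma, adjusted p = 0.136).

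Id3 (ENSMUSG00000007872, chr4:136143497-136145755, plus strand, 3 exons) was the most abundant of the 10 genes. It measured 147.7, 154.0 and 174.0 FPKM with PBS and 125.1, 121.7 and 117.5 FPKM with CTX. The CTX samples lay close together and all below the PBS samples. The mean was 158.6 ± 13.7 FPKM in the PBS group and 121.4 ± 3.80 FPKM in the CTX group (n = 3), so that it was 23.4% lower. The log2 fold change was -0.38 with an SE of 0.08 and an interval from -0.58 to -0.18 (limma, adjusted p = 0.0927), and without CTX replicate 2 it was again -0.38. Over the alternatives, the adjusted p of Id3 (limma) ran from 0.00173 with arrayWeights and 0.0248 after quantile normalization to 0.251 with a replicate block and 0.312 without PBS replicate 2.

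**Figure D3:**
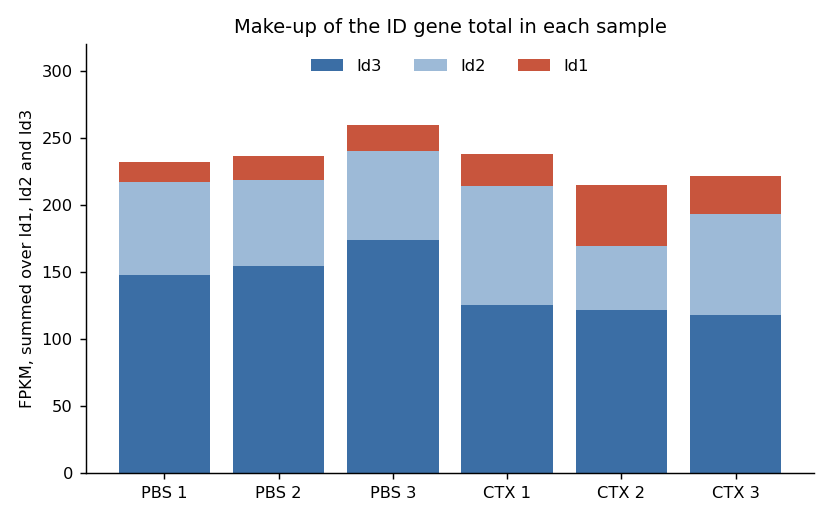
FPKM of Id3 (dark blue), Id2 (light blue) and Id1 (orange), stacked for each sample on a linear axis from 0. The total lies between 214.5 and 259.7 FPKM in all 6 samples, and Id3 takes a smaller part of it in the CTX samples.

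None of the 3 ID genes passed the test, and their sum overlapped between the groups. The summed FPKM of Id1, Id2 and Id3 was 232.0, 236.4 and 259.7 with PBS and 237.6, 214.5 and 221.4 in the CTX samples. Id3 made up 65.3 ± 1.66% of it in the PBS group and 54.1 ± 2.25% in the CTX group, and every CTX sample, at 52.7% to 56.7%, was below every PBS sample, at 63.7% to 67.0%. Id1 made up 6.59% to 7.66% with PBS and 9.97%, 21.0% and 12.7% in CTX replicates 1, 2 and 3. Of the 3 E-protein genes whose products ID proteins bind, 0 were called. Tcf3 (46.1 to 47.6 against 50.7 to 53.9 FPKM) and Tcf12 (7.72 to 8.85 against 9.62 to 10.7 FPKM) had all CTX samples above all PBS samples (15.0% of all genes), and Tcf4 did not.

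**Figure D4:**
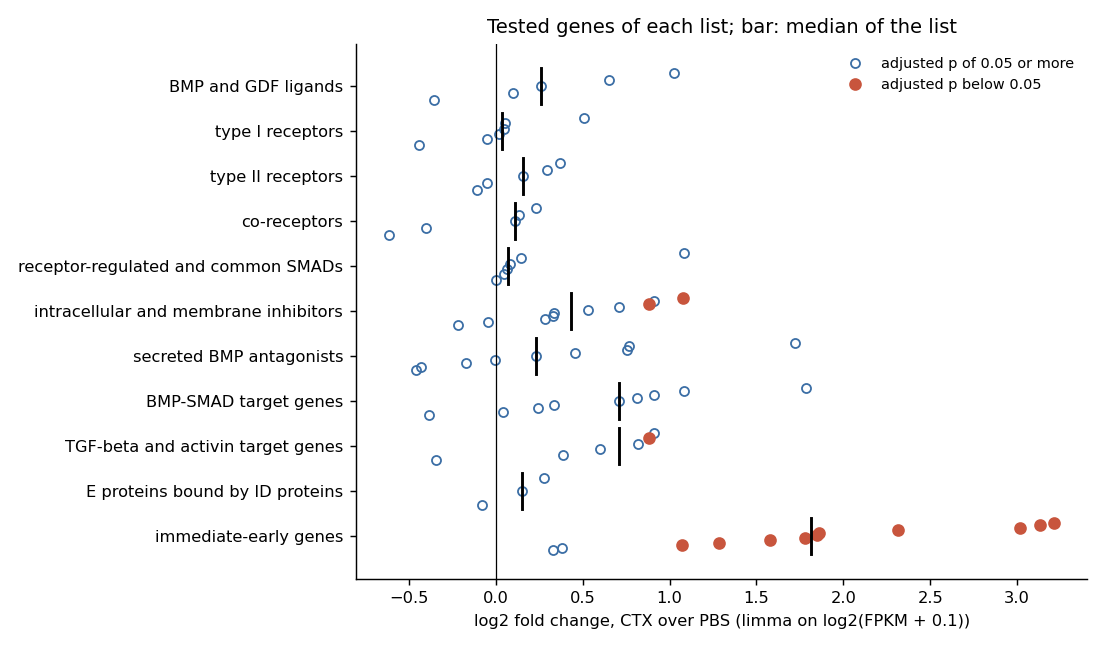
Log2 fold change of CTX over PBS for the tested genes of each list (points, filled where the limma adjusted p was below 0.05), with the median of each list as a black bar. The receptor lists lie around 0, the target and inhibitor lists have medians between 0.43 and 0.71, and the immediate-early list has a median of 1.81.

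Among 12 BMP-SMAD target genes, which include the ID genes, Smad6, Smad7 and Smad9, 9 were tested and 0 were called. CTX samples were all above PBS samples in 5 of the 9 (15.0% of all genes) and all below in 1, Id3 (14.1% of all genes). On the scale of voom these were 3 and 1 of the 9, beside 1789 and 2632 of the 14463 genes tested. The median log2 fold change was 0.71 with all samples and 0.30 without CTX replicate 2. At an unadjusted p below 0.05 (limma) there were 4 of the 9, beside 2840 of the 14463 genes tested. Again, voom on rebuilt reads called 0. Atoh8, a transcription factor gene induced by BMPs in several cell types, had the largest log2 fold change of this list. It measured 1.28, 0.870 and 1.82 FPKM with PBS and 1.96, 11.9 and 4.14 FPKM with CTX, with a log2 fold change of 1.78 (limma, adjusted p = 0.209), and of 1.11 without CTX replicate 2 (limma, adjusted p = 0.201).

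Among 8 TGF-β and activin targets, 6 were tested and 0 were called, and Skil was the 1 that passed on the adjusted p. Their median was 0.71, and 0.41 without CTX replicate 2. Ctgf, a matricellular protein gene, measured 25.1 to 28.9 FPKM with PBS and 34.6 to 53.3 FPKM with CTX, a log2 change of 0.60 (limma, adjusted p = 0.144), and of 0.42 without CTX replicate 2. Of 12 secreted BMP antagonists, 9 were tested and 0 were called, with a median of 0.23. Nbl1 and Twsg1 had all CTX samples above all PBS samples (15.0% of all genes). Their log2 fold changes were 0.77 and 0.23, and 0.43 and 0.18 without CTX replicate 2.

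For comparison, 10 of 12 immediate-early genes were called higher in the same fit (0.802% of all genes), with a median log2 fold change of 1.81. With the replicate number as a block 6 of 12 were called, beside 48 of all genes called higher. The 10 were Fos, Fosb, Jun, Junb, Egr1, Egr2, Ier2, Atf3, Nr4a1 and Klf4, genes that are switched on within minutes to hours of a stimulus. Fos, for instance, measured 367.7 to 392.8 FPKM with PBS and 1247 to 1462 FPKM with CTX. CTX replicate 2, at 1445 FPKM, lay among the CTX samples for Fos, but Dusp1 measured 101.7, 42.4 and 91.8 FPKM in CTX replicates 1, 2 and 3, with a log2 fold change of 0.38, and of 0.77 without CTX replicate 2 (limma, adjusted p = 0.00934).

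**Figure D5:**
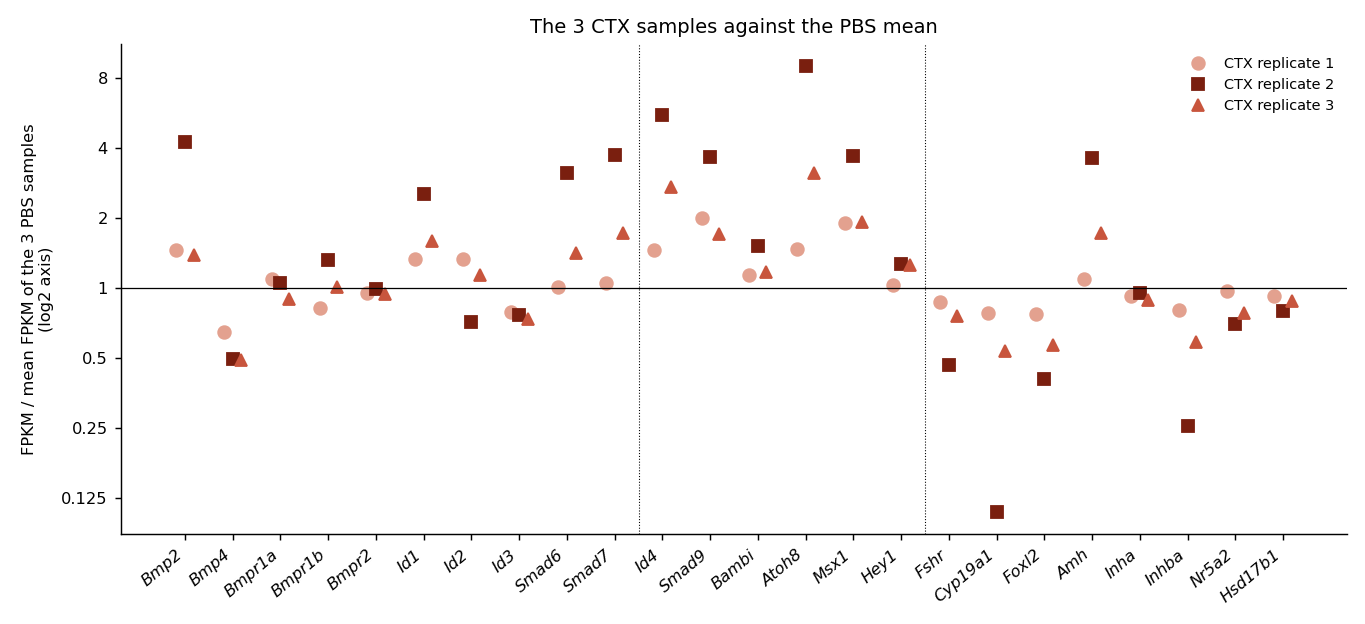
FPKM of each CTX sample divided by the mean of the 3 PBS samples, on a log2 axis, for the 10 BMP and SMAD genes (left of the first dotted line), the other BMP-SMAD targets with reads (middle) and 8 GC markers (right). CTX replicate 2 (squares) is farthest from 1 for Bmp2, Id1, Smad6, Smad7 and Atoh8, above it, and for Cyp19a1 and Inhba, below it.

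The differences in Bmp2, Smad6, Smad7 and Id1 were smaller without CTX replicate 2. That sample was the highest of the 6 samples in 5 of the 9 tested genes and in 29.9% of all genes tested, and the lowest in 1 of the 9 and in 28.2% of all genes. It was highest and also more than 2-fold above the mean of CTX replicates 1 and 3 in 3 of the 9 (Bmp2, Smad6 and Smad7) and in 2.46% of all genes. In the same sample several GC markers stood apart. Cyp19a1, the aromatase gene, measured 59.2 to 62.4 FPKM with PBS and 47.6, 6.61 and 32.5 FPKM in CTX replicates 1, 2 and 3. Inhba, the activin βA subunit gene, measured 753.7 to 902.0 FPKM and then 664.8, 211.3 and 487.1 FPKM in the same order. Amh, the gene of anti-Müllerian hormone and a marker of smaller growing follicles, measured 48.4 to 51.0 FPKM with PBS and 54.2, 178.7 and 85.5 FPKM with CTX. For all 3 of these genes, as for Smad7, CTX replicate 1 was the nearest and CTX replicate 2 the farthest from the PBS samples.

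Markers of other cell types also differed in CTX replicate 2. The summed FPKM of 8 GC markers was 11400 to 12600 with PBS and 10200 to 10860 in the CTX samples. Most of it came from Inha (8556 to 10400 FPKM), so that this sum says little about the other markers. Of the 8, 6 had all CTX samples below all PBS samples (14.1% of all genes). Over 7 theca and stroma markers the sum was 60.4 to 63.9 with PBS and 84.1, 30.5 and 59.9 in CTX replicates 1, 2 and 3. The theca gene Cyp17a1 measured 30.8 to 34.4 FPKM with PBS and 29.6, 1.25 and 12.4 FPKM with CTX. Col1a1, Col3a1, Pdgfra, Dcn and Lum were above all PBS samples in CTX replicates 1 and 3 and below them in CTX replicate 2. Col1a1, for instance, measured 8.18 to 9.58 FPKM with PBS and 16.9, 2.65 and 12.3 FPKM with CTX. Acta2, the smooth muscle actin gene, was the 1 called, higher at a log2 fold change of 1.08 (limma, adjusted p = 0.0166). Its highest sample was CTX replicate 2, at 20.5 FPKM. Without CTX replicate 2, Acta2 was at 0.95 and so under 2-fold, and Lum was called higher at 1.08 (limma, adjusted p = 0.0126). Over 6 leukocyte markers, of which Ptprc lay between 0.0640 and 0.0983 FPKM, the sum was 18.5 to 21.9 with PBS and 32.3, 62.3 and 22.4 in the CTX samples. Most of it came from Lyz2 (13.1 to 45.8 FPKM). Like Cd68 (2.59 to 8.97 FPKM), Lyz2 had all CTX samples above all PBS samples (15.0% of all genes). Over 6 endothelial markers the sum was 4.84 to 5.57 and then 4.18, 1.97 and 4.38, most of it from Cdh5 (3.66 to 4.49 FPKM with PBS and 2.99, 1.25 and 3.11 FPKM with CTX). Over 3 red blood cell genes the sum was 299.3 to 429.0 and then 340.5, 129.6 and 466.9. No gene was called by limma in the GC, leukocyte, endothelial, oocyte or red blood cell lists. The genes tested were 8 of 8, 4 of 6, 1 of 6 (Cdh5), 7 of 7 and 3 of 3, in that order. At an unadjusted p below 0.05 (limma) there were 3 in the GC list and 0 in the others, beside 2840 of the 14463 genes tested. The part of cell composition in the values of Bmp2, Smad6, Smad7 and Id1 was not tested. In samples of pooled cells, fewer cells of a type and less RNA per cell cannot be told apart.

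Some of the genes overlap other annotated genes, and whether the libraries kept strand is not stated. Gm17110, antisense to Bmpr1a, held 4 to 11 reads, against 1591 to 1972 for Bmpr1a, and the genes that overlap Bmp4 and Bmpr2 held at most 2 reads. Start and end of all 10 genes in the deposited table were equal to those of GENCODE M21 on GRCm38.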

How the data were processed

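RNA was extracted from GCs, and libraries were made with the NEBNext Ultra RNA kit from total RNA. The authors deposited FPKM values, which already carried their scaling between samples. The submitters' processing notes name CASAVA 1.8, fastp, HISAT2 2.0.5, featureCounts 1.5.0-p3, DESeq2 1.20.0 and the build mm10, without their roles. The deposited table also holds the authors' group mean signal, log2 fold change, p-value and adjusted p-value, none of which was used. Multiplied by gene length and divided by a constant fitted for each sample, the FPKM values were whole numbers of reads within 0.02 reads. These rebuilt reads gave the depth.

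Samples were grouped by their labels. Genes whose FPKM averaged 0.5 or more were compared as log2(FPKM + 0.1) by limma 3.58.1 (lmFit, then eBayes with its trend option; R 4.3.3), with Benjamini-Hochberg adjustment over all tested genes. For low genes the pseudocount shrinks this fold change. Called genes had an adjusted p below 0.05 and more than a 2-fold change. Exact permutation tests used SciPy 1.17.1, and intervals are at 95%. A floor of 3 reads covers counting error only.

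The members and gene lists were chosen with earlier results of these data known. Every member is named, and from each other list any called gene, or else up to 3 with the largest change among genes whose groups did not overlap. A gene that this rule would name is not reported here. Bmp15, Gdf9, Tcf4, Cyp19a1, Inhba, Amh and Inha were named beside these for the cells or proteins they stand for. Other settings tried were a pseudocount of 1 or 0.01, no filter, an FPKM average of 5 or more, quantile normalization, scaling to read totals, a replicate block, arrayWeights, each sample left out, voom on rebuilt reads and no fold threshold. Same-numbered samples did not deviate together (correlations of their deviations 0.0556, 0.0242 and 0.00581), and replicate numbers were left out of the reported fit. The labels name no batch, and p-values measure the spread between pools of mice.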

Additional observations from a re-analysis of the deposited data

How the results depend on the processing

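None of the 9 tested BMP and SMAD genes was called under any of the 16 alternative settings, and of 134 values of log2 fold change under them, 123 kept their sign without being called by adjusted p and fold together and 11 changed sign, all in Bmpr1a, Bmpr1b, Bmpr2 and Id2, whose values lay near 0. Bmpr1a was -0.01 after scaling to read totals, -0.13 with arrayWeights and -0.01 with voom, and Id2 was -0.005 after quantile normalization. With each sample left out in turn, Bmpr1a ranged from -0.037 to 0.109, Bmpr1b from -0.129 to 0.212, Bmpr2 from -0.112 to 0.028 and Id2 from -0.142 to 0.305. The number of all genes called was 139 in the reported fit, 50 with the replicate number as a block, 657 with arrayWeights and 254 with no fold threshold, and it ranged from 58 to 208 with each sample left out. The block changed no call among the 9 genes, and it lowered the calls among immediate-early genes from 10 to 6. On the adjusted p alone, Id3 passed after quantile normalization, Bmp2 passed without CTX replicate 2, and 5 genes passed with arrayWeights. The causes were not tested. Scaling to read totals shifted the median of all genes by -0.03. With 3 samples a group, the intervals of Bmp2, Smad6 and Smad7 reach from about 0 or below to above 2-fold, and Bmp4 cannot be compared at 3 to 8 reads.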

Other observations

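Further genes of the lists are given as values. Id4, the remaining ID gene, measured 0.146, 0.142 and 0.273 FPKM with PBS and 0.272, 1.04 and 0.508 FPKM with CTX, on 10 to 71 reads, with CTX replicate 2 the highest. Msx1 measured 0.141 to 0.279 FPKM with PBS and 0.392, 0.764 and 0.397 FPKM with CTX. Bmp7, a ligand known from theca cells, measured 0.251 to 0.292 FPKM with PBS and 0.906, 0.281 and 0.708 FPKM in CTX replicates 1, 2 and 3, so that CTX replicate 2 lay within the PBS range while CTX replicates 1 and 3 were above it. The secreted antagonist Nog measured 0.291 to 0.596 FPKM with PBS and 0.488, 4.49 and 2.01 FPKM with CTX, with a log2 fold change of 1.72 (limma, adjusted p = 0.263), and of 1.04 without CTX replicate 2. Bmp6, an additional ligand, measured 2.83 to 3.04 FPKM with PBS and 2.53, 10.4 and 3.89 FPKM with CTX, with a log2 fold change of 0.65 (limma, adjusted p = 0.462), and of 0.09 without CTX replicate 2. These genes were chosen after their values were seen. Id4, Msx1 and Bmp7 were below the expression filter and were not tested, and Nog and Bmp6 were not called.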
